A study of Mus musculus with 60 samples.

Results

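A set of 4 transcripts that encode parts of Polycomb repressive complex 2 (PRC2) were followed through 27 libraries of mouse tailbud RNA: ENSMUST00000081721.12, listed for Ezh2, ENSMUST00000017692.14, listed for Suz12, ENSMUST00000107234.2, listed for Eed, and ENSMUST00000044608.13, listed for Jarid2. They were chosen by their identifiers, 1 row per gene, as 4 of the 117135 transcripts in each deposited table, and all 4 were among the 45394 with enough counts to be tested. The pairing of transcript with gene came with the choice of the rows. The gene name tables at hand matched 0 transcript identifiers, so it could not be checked, and each row is called below by the gene it is listed for. Each row is 1 transcript of its gene, and other transcripts of the same genes were not counted in. By symbol, the RefSeq annotation of GRCm38.p6 places the protein-coding genes as follows: Ezh2 on chromosome 6 from 47530274 to 47595270, Suz12 on chromosome 11 from 79993106 to 80034123, Eed on chromosome 7 from 89954654 to 89980976, and Jarid2 on chromosome 13 from 44730774 to 44921643.

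PRC2 represses developmental genes by methylating histone H3 on lysine 27. EZH2 is the catalytic subunit, SUZ12 is the scaffold on which the complex is built, and EED binds the methylated histone tail and raises the activity of the enzyme. JARID2 is an accessory subunit that helps to bring the complex to chromatin and, when methylated itself, can be bound by EED. In the elongating embryo PRC2 is known for keeping Hox genes silent until their turn along the body axis.

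Each library came from the tailbud, the posterior tissue that adds new segments, of 1 mouse embryo. Embryos are labelled WT or MUT, and for tailbuds the submitters state the mutation to be JARID2 K116R, an exchange of lysine for arginine at residue 116. Zygosity, strain, sex, litter and batch are not given in the sources used here. Wild-type embryos numbered 4 at each of 12, 13, 14 and 16 somites, the paired blocks of tissue by which embryos were staged, and mutants numbered 2 at 12, 2 at 13, 2 at 14 and 5 at 16 somites. The 33 chromatin libraries of the series, from embryonic stem cells, were not analysed here. Estimated counts per library summed to between 20908470 and 27090684. The library of wild-type embryo 4 at 14 somites held 0.246% of its counts in the least abundant transcripts, against at most 0.139% in the other 3 of its group, and several values below are also given without it. The tissue was not checked against marker genes, because that needs gene names.

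The first question was how abundant the 4 transcripts were beside each other. Compared per length, as TPM (a relative abundance scaled by transcript length), Ezh2 stood at 41.7 ± 4.95 TPM (SD, n = 27), Eed at 36.3 ± 10.4 TPM (SD, n = 27) and Suz12 at 8.85 ± 1.39 TPM (SD, n = 27). Jarid2 had a median of 0.113 TPM over the 27 embryos, with a lowest value of 0 and a highest of 2.72. Suz12 lay below both Ezh2 and Eed in all 27 embryos, and Jarid2 lay below the other 3 in all 27. Ezh2 and Eed were not separated in this way, since Eed was at least as high as Ezh2 in 5 embryos, 3 of them wild type and 2 mutant. Relative to Ezh2 in the same embryo, Eed had 86.6% ± 19.7 (SD, n = 27) of its TPM and Suz12 had 21.4% ± 3.78 (SD, n = 27). Jarid2 had a median of 0.291% of the TPM of Ezh2. The means of Ezh2, Eed and Suz12 lay above those of 97.1%, 96.8% and 92.0% of the 89010 transcripts with any count, and that of Jarid2 above 59.4%.

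**Figure D1:**
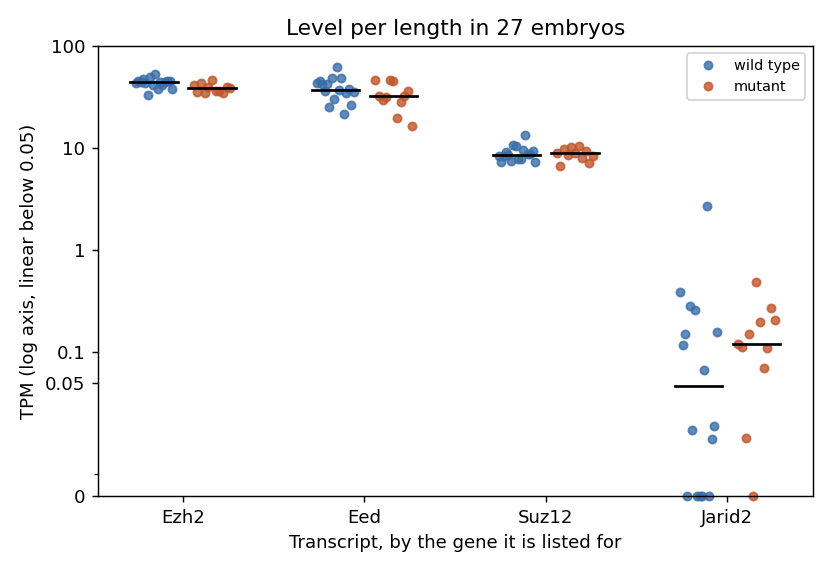
TPM of the 4 transcripts in each embryo (vertical axis logarithmic, linear below 0.05), with wild-type embryos in blue, mutants in orange and black bars at the medians of 16 wild-type and 11 mutant embryos. Ezh2 and Eed share a range, Suz12 sits lower, and Jarid2 reaches 0 in 6 embryos.

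For genotype, the question was whether a change in 1 amino acid of JARID2 went along with another level of the transcripts of the complex. None of the 4 passed the test. In whole tailbuds, fewer cells of a type and less RNA per cell cannot be told apart. Over all stages, with stage as a factor, edgeR's quasi-likelihood test called 0 of the 4 and 7 of 45394 transcripts, a background of 0.0154%. Within stages it called 0 of the 4 throughout, against a background of 0% at 12 somites, 0.00661% at 13, 0.00661% at 14 and 0% at 16 somites. A joint test of whether the genotype effect differed between stages also called 0 of the 4, with 0.00661% of all transcripts called. DESeq2, run as an alternative, called more transcripts in all and also 0 of the 4: its background was 0.509% over all stages, 0.849%, 0.529%, 0.506% and 0.575% at 12, 13, 14 and 16 somites, and 0.0531% for the joint test. Counting the trends with somite number described further down, 36 tests were made on the 4 transcripts. Of these, 0 had an unadjusted p under 0.05 with edgeR (smallest 0.0785) and 0 with DESeq2 (smallest 0.0767). Over all transcripts the share with an unadjusted p under 0.05 by edgeR was 2.74% to 7.63%, depending on the comparison, so a count of 0 in 36 is near that background. The CPM ranges of the genotypes overlapped in all 16 pairs of transcript and stage. Ranges without overlap were found in 12.9% of all tested transcripts at 12 somites, 12.6% at 13, 9.11% at 14 and 2.15% at 16 somites, so overlap is the usual case and says little about the 4. The intervals of the differences, given with each transcript, say how large a change the data leave room for. Values per embryo are in CPM, estimated counts relative to the library total after scaling with TMM factors, and changes are log2 of mutant over wild type.

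EZH2 carries the methyltransferase activity, and its transcript was the steadiest of the 4. At 12 somites Ezh2 stood at 109, 116, 121 and 124 CPM in the 4 wild-type embryos and at 112 and 113 CPM in the 2 mutants. At 13 somites the wild-type values were 110, 97.9, 110 and 110 CPM and the mutant values 111 and 102 CPM. The mutants thus lay inside or next to the wild-type range at both stages. At 14 somites wild type read 124, 104, 103 and 81.3 CPM and mutants 95.9 and 120 CPM. At 16 somites wild type read 115, 132, 123 and 106 CPM and the 5 mutants 128, 109, 103, 114 and 118 CPM. The genotypes overlapped at every stage. Over all stages the mean of Ezh2 was 111.5 ± 12.2 CPM (SD) over the 16 wild-type embryos and 111.5 ± 8.85 CPM over the 11 mutants. The log2 change was -0.02 with a standard error of 0.055, a 95% interval of -0.13 to 0.09 and an edgeR adjusted p of 0.98. As a fold this interval runs from 0.912 to 1.07, so a change of the Ezh2 transcript beyond that range lies outside what the model allows at this confidence. The bound depends on the scaling. With DESeq2 the log2 change was -0.02 with a standard error of 0.055, and on library totals without TMM it was -0.09. On the deposited TPM scale, described with Suz12, the log2 change was -0.16, which is below the interval. The within-group SD of Ezh2 was 0.143 log2 units. Of the 2233 transcripts whose mean CPM was within a factor of 2 of its own, 79.2% had a larger SD.

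Suz12, the transcript of the scaffold subunit, was the one with the smallest p. At 12 somites it read 32.6, 28.7, 34.7 and 37.0 CPM in wild type and 36.7 and 32.6 CPM in mutants. At 13 somites it read 32.2, 33.8, 35.5 and 41.6 CPM in wild type and 38.6 and 39.5 CPM in mutants. At 14 somites it read 28.0, 32.8, 34.1 and 40.6 CPM in wild type and 37.9 and 35.2 CPM in mutants. At these 3 stages every mutant fell within the wild-type range. At 16 somites wild type read 34.4, 38.8, 38.2 and 30.7 CPM and the mutants 57.7, 36.9, 42.4, 31.5 and 39.3 CPM. There 3 of the 5 mutants exceeded all 4 wild-type embryos and the ranges still overlapped. Mutant embryo 1 at 16 somites, with 57.7 CPM, was the highest of all 27.

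Over all stages Suz12 averaged 34.6 ± 3.92 CPM (SD) across the 16 wild-type embryos and 38.9 ± 6.96 CPM across the 11 mutants. The log2 change was 0.14 with a standard error of 0.078, a 95% interval of -0.02 to 0.31, an unadjusted p of 0.0785 and an edgeR adjusted p of 0.717. In folds the interval runs from 0.988 to 1.24. Without wild-type embryo 4 at 14 somites the change was 0.17 with an unadjusted p of 0.0325 and an edgeR adjusted p of 0.588, and without mutant embryo 1 at 16 somites it was 0.10 with an adjusted p of 0.818. The stage changes of Suz12 were 0.06, 0.13, 0.11 and 0.23 from 12 to 16 somites, with edgeR adjusted p of 0.807 at 16 somites and 1 at the others. Single embryos moved these by over 1.5 times. At 13 somites the change was 0.08 without wild-type embryo 1 and 0.21 without embryo 4, and at 14 somites it was 0.03 without wild-type embryo 1 and 0.20 without embryo 4. At 16 somites it was 0.09 without mutant embryo 1, each of these with an edgeR adjusted p of 1. On the deposited TPM scale the direction over all stages turned, to -0.01 with a limma adjusted p of 0.975. That scale moves the median change of all tested transcripts from -0.01 to -0.13, and relative to this median Suz12 was 0.11 higher in mutants there and 0.16 higher on the TMM scale. The same shift touches Ezh2, whose change on the TPM scale was -0.16 with an unadjusted p of 0.0452 and a limma adjusted p of 0.398. Relative to the median it was -0.04 there and -0.01 on the TMM scale.

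**Figure D2:**
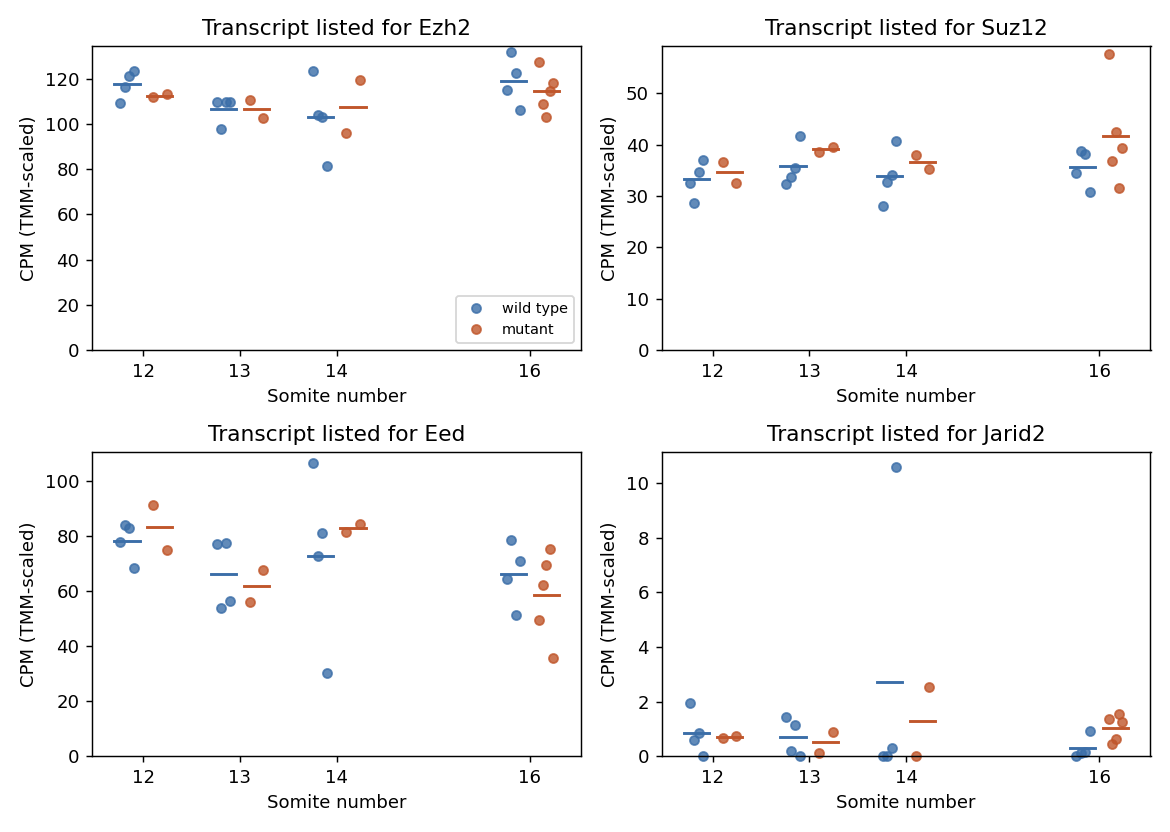
CPM after TMM scaling of each transcript in each of the 27 embryos against somite number, with wild-type embryos in blue, mutants in orange and bars at group means. The genotypes overlap in all 16 pairs of transcript and stage, and the mean of Jarid2 in wild type at 14 somites follows 1 embryo at 10.6 CPM.

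EED reads the methylated histone, and its transcript varied the most among the 3 abundant ones. At 12 somites Eed read 77.8, 84.2, 83.0 and 68.5 CPM in wild type and 91.2 and 75.1 CPM in mutants. At 13 somites it read 77.2, 53.7, 77.4 and 56.3 CPM in wild type and 55.9 and 67.6 CPM in mutants. At both stages the spread among wild-type embryos took in all but 1 of the 4 mutants. At 14 somites wild type ran over 107, 72.7, 81.2 and 30.3 CPM, while the mutants stood at 81.4 and 84.3 CPM. At 16 somites wild type read 64.4, 78.7, 51.5 and 71.0 CPM and the mutants 49.7, 62.1, 69.6, 75.3 and 35.8 CPM. The lowest value, 30.3 CPM, came from wild-type embryo 4 at 14 somites and the highest, 107 CPM, from embryo 1 of the same group. Eed averaged 70.9 ± 17.3 CPM (SD) across the 16 wild-type embryos and 68.0 ± 16.3 CPM across the 11 mutants. The log2 change was -0.03 with a standard error of 0.141, a 95% interval of -0.32 to 0.26 and an edgeR adjusted p of 0.991. In folds the interval is 0.803 to 1.20, wider than that of Ezh2 although the levels are similar. The within-group SD of Eed was 0.409 log2 units, and only 7.05% of the 3234 transcripts within a factor of 2 of its mean CPM had a larger one. At 14 somites its change was 0.19 with all embryos and -0.07 without wild-type embryo 4, and at 16 somites it was -0.18 with all embryos and -0.04 without mutant embryo 5, all with edgeR adjusted p from 0.995 to 1.

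JARID2 carries the mutation, but the row listed for its gene was close to the limit of detection. Its estimated count was 0 in 6 of the 27 embryos, 5 wild type and 1 mutant. A count of 0 allows up to 3 counts, or 0.104 to 0.120 CPM in these libraries, for counting error only. At 12 somites Jarid2 read 1.97, 0.611, 0.856 and 0 CPM in wild type and 0.665 and 0.738 CPM in mutants. At 13 somites it read 1.43, 0.178, 1.14 and 0 CPM in wild type and 0.118 and 0.901 CPM in mutants. At 14 somites 2 wild-type embryos were at 0, embryo 3 was at 0.313 CPM and embryo 4 at 10.6 CPM, and the mutants read 0 and 2.55 CPM. Embryo 4, with 336 estimated counts, was the highest of all 27 and is the one whose library stood apart. At 16 somites wild type read 0, 0.129, 0.165 and 0.915 CPM and the mutants 1.35, 0.438, 0.644, 1.54 and 1.24 CPM. Here 3 of 5 mutants lay above all wild-type embryos, and the ranges overlapped.

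Over all stages the log2 change of Jarid2 was 0.22 with a standard error of 1.03, a 95% interval of -1.90 to 2.34 and an edgeR adjusted p of 0.988. In folds the interval runs from 0.269 to 5.08. Without wild-type embryo 4 at 14 somites the change was 1.31 with an adjusted p of 0.836. At 16 somites it was 1.78 with a 95% interval of -1.68 to 5.24 and an edgeR adjusted p of 0.948, and without wild-type embryo 4 of that stage it was 3.35 with an adjusted p of 0.868. At 14 somites it was -1.10 with all embryos, and 3.53 without wild-type embryo 4, so its direction depended on that embryo. Without mutant embryo 2 the one mutant left at that stage is at 0, and no fold is given. A difference of the Jarid2 transcript between genotypes was not detected, with a within-group SD of 2.07 log2 units. Because 1 low transcript of the gene was read, these values do not give the level of Jarid2 RNA as a whole, nor do counts show which allele the RNA came from.

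**Figure D3:**
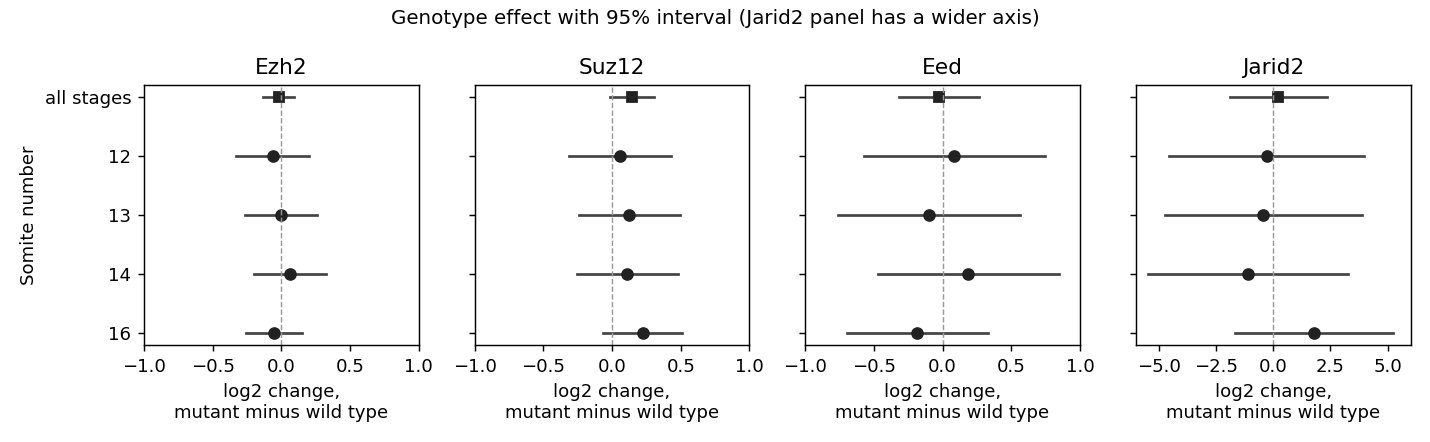
Log2 change of each transcript, mutant minus wild type, over all stages (square) and at each stage (circles) with its 95% interval from edgeR. Every interval includes 0, and the Jarid2 panel has a wider axis because its intervals span up to -5.45 to 3.26.

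The next comparison was over somite number, in each genotype alone. In the 16 wild-type embryos edgeR called 0 of the 4 transcripts, against 0.0218% of 36763 transcripts tested, and in the 11 mutants 0 of 4, against 0.0255% of 39151. DESeq2 also called 0 of the 4, with a background of 0.117% in wild type and 0.397% in mutants. In wild type the slopes per somite were 0.01 log2 units for Ezh2 (95% interval -0.05 to 0.07), 0.01 for Suz12 (-0.05 to 0.08) and -0.05 for Eed (-0.18 to 0.08). In mutants they were 0.02 for Ezh2 (-0.03 to 0.07), 0.06 for Suz12 (-0.03 to 0.16) and -0.10 for Eed (-0.23 to 0.03). The slope of Jarid2 had an interval of -1.51 to 1.14 in wild type and of -0.46 to 0.82 in mutants. None of these slopes passed the test. Leaving out 1 mutant at 16 somites moved them: Suz12 had 0.016 without embryo 1, Ezh2 0.0047 without embryo 1, and Eed -0.063 without embryo 5. Leaving out embryo 1 at 13 somites gave Jarid2 0.10 in place of 0.18. The adjusted p from edgeR was 1 for all 4 in wild type and between 0.831 and 0.945 in mutants. Tested against each other, the slopes of the genotypes differed by edgeR in 0 of the 4 and in 0% of 45394 transcripts, and by DESeq2 in 0 of the 4 and 0.25% of its transcripts. The differences, mutant minus wild type, were 0.01 for Ezh2, 0.04 for Suz12, -0.06 for Eed and 0.36 for Jarid2, each with an edgeR adjusted p of 1. The difference for Eed was -0.023 without mutant embryo 5 at 16 somites. For Jarid2 it was 0.16 without wild-type embryo 1 at 16 and 0.58 without wild-type embryo 4 at 14 somites.

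Whether the 4 transcripts varied together between embryos of one group was asked after subtracting the mean of each of the 8 groups from log2 CPM (prior count 2). The embryos share library and depth effects, and 6 pairs were computed. Subtracting a group mean ties the values of that group together, and in groups of 2 mutants they are mirror images. The permutations made no allowance for this, so the permutation p values here and below may be too small. Passes close to the threshold are therefore not firm. On this scale the strongest relation was between Suz12 and Eed, with opposite signs. Pearson r was -0.507 (permutation p = 0.00992, 0.0595 after Benjamini-Hochberg adjustment over the 6). Spearman rho was -0.347 (permutation p = 0.0762, adjusted 0.457), n = 27. Without the 2 embryos whose Suz12 value was farthest from the median, r was -0.510, and without wild-type embryo 4 at 14 and mutant embryo 1 at 16 somites it was -0.406. On log2 of TPM plus 0.1 the relation was weaker, with the same sign, and did not pass the adjusted threshold. On the CPM scale r ran from -0.572 to -0.421 when 1 embryo was left out. With all 27 embryos it did not pass the adjusted threshold there either. Leaving out single embryos moved it across: it passed without each of wild-type embryo 2 at 13 somites (r = -0.529), embryo 3 at 14 (-0.519) and embryo 2 at 16 somites (-0.542), and of mutant embryos 1 (-0.547), 3 (-0.527) and 5 (-0.572) at 16 somites.

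Ezh2 and Eed had an r of 0.435 (permutation p = 0.0267, adjusted 0.0801) but a rho of 0.0305 (permutation p = 0.879, adjusted 0.879). Without the 2 embryos whose Ezh2 value was farthest from the median, wild-type embryos 1 and 4 at 14 somites, r was -0.139, so the relation rests on them. It passed the adjusted threshold without mutant embryo 3 (r = 0.498) or embryo 5 (0.506) at 16 somites. The other 4 pairs had r from -0.333 (Ezh2 and Jarid2) to 0.0269 (Suz12 and Jarid2), with adjusted permutation p from 0.178 to 0.910. That of Ezh2 and Jarid2 was -0.0691 without wild-type embryo 4 at 14 somites and 0.0960 without the 2 embryos farthest in Ezh2. Among the 24397 transcripts that averaged 1 CPM or more, 1.25% had a correlation with Eed below that of Suz12, and 7.30% had one above that of Ezh2. From the other side the shares were larger: 11.3% had a correlation with Suz12 below that of Eed, and 10.3% had one with Ezh2 above that of Eed.

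A property of the library moved with Jarid2 and, on the TPM scale, with Suz12. For each library the log2 ratio of CPM to the mean of all libraries was fitted on log2 transcript length. The fit took the transcripts that averaged 1 CPM or more. The Jarid2 row was among them, at a mean of 1.06 CPM that includes the 10.6 CPM of wild-type embryo 4 at 14 somites. A long transcript can follow this slope by construction, and how many of like length do so was not computed. The slope ran from -0.0603 to 0.240 per doubling of length in wild type and from -0.0720 to 0.0332 in mutants, with the highest in wild-type embryo 4 at 14 somites. Within groups it had an r of 0.672 with Jarid2 (permutation p = 0.00021, 0.00084 adjusted over the 4 transcripts) and a rho of 0.480 (permutation p = 0.0119, adjusted 0.0478), n = 27. Without the 2 embryos farthest from the median slope, wild-type embryos 4 and 2 at 14 somites, r was 0.424. At 5019 bases the Jarid2 row is the longest of the 4, against 4373 for Suz12, 2787 for Ezh2 and 2067 for Eed. This slope was also used as a covariate, an alternative chosen after seeing the data. The change of Jarid2 over all stages was then 2.39 with a standard error of 0.949, an unadjusted p of 0.0190 and an edgeR adjusted p of 0.719. Mean slopes were 0.0212 in wild type and -0.0308 in mutants, so the covariate and genotype overlap. Their parts in this change cannot be fully told apart. The slope had an r of -0.444 with Ezh2 (permutation p = 0.0236, adjusted 0.0473; rho -0.236, permutation p = 0.237, adjusted 0.473), which was -0.133 without the same 2 embryos and so rests on them. For Suz12 r was 0.172 and rho 0.0153, and for Eed r was -0.352 and rho 0.150, with adjusted permutation p from 0.104 to 0.941. These values depend on the scale, and their permutation p values may be too small for the reason given with the pairs of transcripts. On log2 of TPM plus 0.1, Suz12 had an r of 0.632 with the slope (permutation p = 0.00048, adjusted 0.00096; rho 0.370, permutation p = 0.0589, adjusted 0.0834) and 0.353 without the same 2 embryos. On that scale Jarid2 had an r of 0.767, Ezh2 0.276 and Eed -0.0861. What part the slope has in the values of Jarid2 was not tested.

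**Figure D4:**
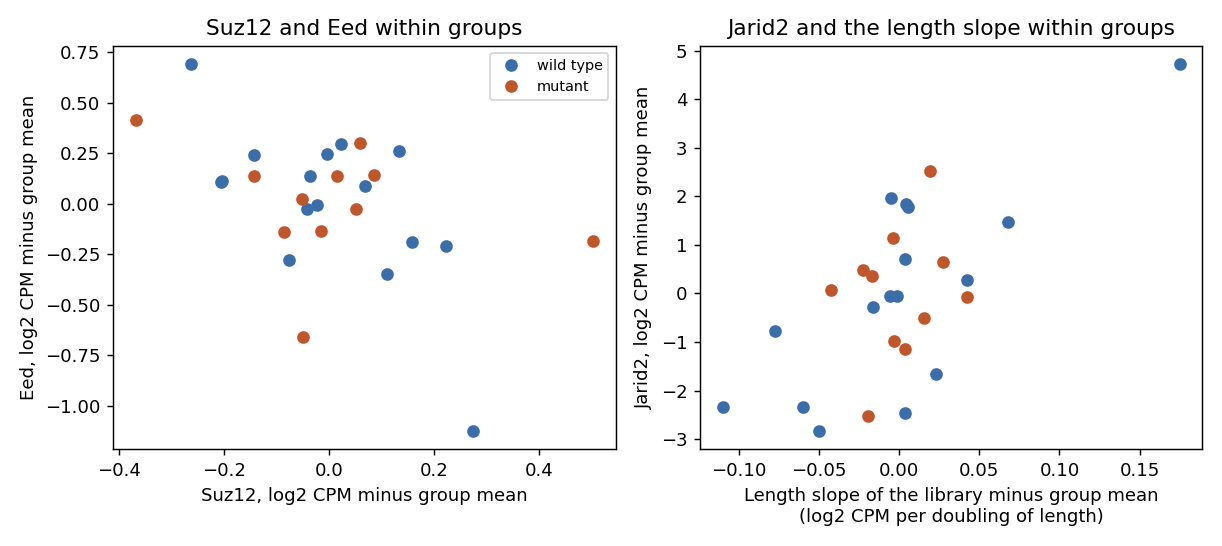
Left, Eed against Suz12, each as log2 CPM minus the mean of the group. Right, Jarid2 on the same scale against the length slope of the library minus the mean of the group, with wild-type embryos in blue and mutants in orange (n = 27 in both). Eed and Suz12 had an r of -0.507, which did not pass the threshold (permutation p = 0.0595 after Benjamini-Hochberg adjustment). Wild-type embryo 4 at 14 somites has the lowest Eed value, -1.12 with Suz12 at 0.274, and the highest length slope.

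Transcripts of like pattern were sought by the Pearson r of log2 CPM over the 27 embryos, without subtracting group means, among the same 24397. The closest to Ezh2 was ENSMUST00000161017.7 with an r of 0.816, and the tenth closest had 0.771. For Suz12 it was ENSMUST00000033310.8 with 0.801, for Eed ENSMUST00000109432.3 with 0.774, and for Jarid2 ENSMUST00000039132.8 with 0.688. These are the highest of many values and describe these embryos only, and the tables at hand give no gene name for them. Correlations above 0.5 were held by 7.14% of the compared transcripts with Ezh2, 3.58% with Suz12, 1.79% with Eed and 0.541% with Jarid2.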

How the data were processed

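RNA of 27 tailbuds was quantified per transcript. The authors deposited estimated counts, TPM and effective lengths per embryo. The submitters' processing notes name Salmon 1.5.2, Trim Galore 0.5.0, DESeq2 1.46.0, mm10 and hg38, without roles. The annotation release, strandedness and bias correction are not given in the sources used here. Reads shared by transcripts are divided by estimation, so transcripts of a gene can trade reads.

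The members, lists and tests were chosen with earlier results of these data known. Estimated counts were rounded. Transcripts passing filterByExpr on the 8 groups were scaled with TMM factors and tested across the whole table with edgeR 4.0.16 (quasi-likelihood; R 4.3.3), with Benjamini-Hochberg adjustment over all transcripts tested and a threshold of 0.05. Each standard error is the absolute change divided by the root of its F statistic. Stage effects share 1 fit, since 2 mutants give no spread of their own. Named transcripts are the 4 members and, by identifier, the transcript most like each. Gene lists, marker lists and sums to genes were not run because transcripts carry no names. Permutations were two-sided and numbered 100000, with fewer for correlations that left out 1 embryo. Those correlations kept the group means of all embryos. No permutation allowed for the ties that subtracted group means leave between embryos of a group. Alternatives used DESeq2 1.42.0 and limma 3.58.1, the latter on log2 of TPM plus 0.1. Only the fit for genotype over all stages was tried on simulated counts. The stage, joint, slope and permutation tests were not. Group labels give separate embryos, and the embryo numbers were not used to pair them in the main fits. No 2 libraries of a group agreed within sampling noise, the smallest chi-square per degree of freedom over 37 pairs being 13.1. Figures were drawn with matplotlib 3.10.9.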

Additional observations from a re-analysis of the deposited data

Results flagged for a closer look

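In groups of 4 or 5 embryos, 35 comparisons of 1 embryo with the rest set 3 values apart. They took 4 transcripts and 3 measures of the library in 5 groups. For normally distributed values chance alone sets apart about 1 in 20, or 1.75. That rate need not hold for skewed values near 0 such as those of Jarid2, so nothing is concluded from the count. Jarid2 stood at 10.6 CPM in wild-type embryo 4 at 14 somites, against 0 to 0.313 CPM in the other 3. The same embryo had 0.246% of its counts in transcripts outside the filter on low counts, against 0.129% to 0.139% in the others. Ezh2 stood at 97.9 CPM in wild-type embryo 2 at 13 somites, where the other 3 all read 110 CPM and so left almost no spread to compare with.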

How the results depend on the processing

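None of the 4 transcripts passed an adjusted p of 0.05 in any of 196 tests under the alternatives tried or of 864 that each left out 1 embryo; the smallest adjusted p were 0.398 and 0.535. The lone mutant that some of these fits leave in a stage is assumed to vary like the other groups. Over all transcripts the count called for genotype over all stages was 7 with edgeR as described, 1 with the replicate block, 3 without a filter, 4 with somite number as a number, 0 without 16 somites, 14 without TMM, 16 with the length slope, 32 without the 2 libraries named below, 37 with limma on TPM and 189 with DESeq2. Some estimates changed sign, those of Jarid2 by the widest margins. Without 16 somites (18 embryos left) the effect over all stages was 0.0012 for Ezh2, 0.061 for Eed and -0.59 for Jarid2, and the wild-type slope -0.089 for Ezh2 and 0.86 for Jarid2. With somite number as a number it was -0.34 for Jarid2. Without a filter Ezh2 at 13 somites was 0.0076. Without 2 libraries, wild-type embryo 4 at 14 and mutant embryo 1 at 16 somites (chosen after seeing the data, as were TPM, the total without TMM and the length slope), the effect at 14 somites was -0.046 for Ezh2, -0.082 for Eed and 3.54 for Jarid2, and the difference of slopes of Ezh2 -0.0056. The comparisons of single embryos above set apart the first of these libraries and not the second. That second library had the lowest total, 20908470, and the highest Suz12 value. On the TPM scale Suz12 over all stages was -0.011, and within groups r was 0.241 for Ezh2 with Suz12 and 0.00857 for Ezh2 with Jarid2. The cause of these turns was not tested, beyond that settings which leave out embryos rest on fewer. With the replicate block for the embryo number, Jarid2 at 14 somites was 1.40 and over all stages 1.09, and no call changed. Residuals of same-numbered embryos had a median r of 0.0088 over 76 pairs, and 4 pairs exceeded 0.1. For other numbers the median was 0.0021 over 238 pairs, and 11 exceeded 0.1. No pairing by number was seen. Residuals mirror each other in groups of 2 mutants, so the check cannot settle whether same-numbered embryos share a litter or batch.

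Leaving out 1 embryo gave, over all stages, -0.044 to 0.0061 for Ezh2, 0.097 to 0.17 for Suz12, -0.072 to 0.028 for Eed and -0.014 to 1.31 for Jarid2. At 12 somites it gave -0.096 to -0.041 for Ezh2, -0.022 to 0.14 for Suz12, -0.054 to 0.22 for Eed and -0.70 to 0.53 for Jarid2. At 13 somites it gave -0.075 to 0.063 for Ezh2, 0.076 to 0.21 for Suz12, -0.23 to 0.015 for Eed and -2.48 to 0.37 for Jarid2. At 14 somites it gave -0.12 to 0.21 for Ezh2, 0.028 to 0.20 for Suz12, -0.075 to 0.43 for Eed and -9.09 to 3.53 for Jarid2 (the lowest with the one mutant left at 0, so it depends on the prior count), and at 16 somites -0.10 to 0.0048 for Ezh2, 0.085 to 0.32 for Suz12, -0.28 to -0.041 for Eed and 1.37 to 3.35 for Jarid2. Wild-type slopes ran from -0.0066 to 0.022 for Ezh2, 0.0017 to 0.030 for Suz12, -0.065 to -0.023 for Eed and -0.41 to 0.013 for Jarid2. Mutant slopes ran from 0.0047 to 0.029 for Ezh2, 0.016 to 0.083 for Suz12, -0.13 to -0.063 for Eed and 0.10 to 0.24 for Jarid2, and slope differences from -0.0063 to 0.024 for Ezh2, -0.0011 to 0.064 for Suz12, -0.090 to -0.023 for Eed and 0.16 to 0.58 for Jarid2. The within-group r ran from -0.216 to 0.178 for Ezh2 with Suz12, 0.143 to 0.506 for Ezh2 with Eed, -0.440 to -0.0691 for Ezh2 with Jarid2, -0.572 to -0.421 for Suz12 with Eed, -0.174 to 0.105 for Suz12 with Jarid2 and -0.355 to 0.0674 for Eed with Jarid2.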

Other observations

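In the deposited tables the row 3 places after that of Jarid2, ENSMUST00000173246.7 of 5997 bases, held 651 to 1283 estimated counts per library, against 0 to 336 in the Jarid2 row. It was the most abundant of the 12 rows within 6 places on either side, an inspection made after the values were seen. It averaged 35.1 ± 2.80 CPM (SD) across the 16 wild-type embryos and 38.1 ± 9.75 CPM across the 11 mutants. The log2 change over all stages was 0.08 with a standard error of 0.089, a 95% interval of -0.10 to 0.27 and an edgeR adjusted p of 0.913. The place of a row does not say which gene it belongs to, and the tables at hand do not name it, so it was not counted as Jarid2.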
